A study of Homo sapiens with 12 samples.

Results

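The IL-6 family cytokines and the colony-stimulating factors were followed in BT549 cells through a list of 8 genes: IL6, LIF, IL11 and CLCF1 (ligands of the IL-6 family), IL6ST (their common receptor chain), and CSF1, CSF2 and CSF3 (colony-stimulating factors). A gene was taken from probe sets that carry 1 gene symbol, and where it had more than 1 such probe set, from the one with the highest mean over the 12 arrays. This gave 6 of the 8 genes, among 17958 genes measured in all; CLCF1 and CSF2 had no probe set of this kind and were not analysed here. BT549 is an established triple-negative breast cancer line. Total RNA was measured on Affymetrix gene arrays in 4 groups of 3: a pool of c-Jun siRNAs followed by TNFα, the same pool followed by vehicle, a control siRNA followed by TNFα, and the control siRNA followed by vehicle. The siRNA was present for 72 hours before the treatment, which lasted 6 hours, so every group, the controls included, had been transfected. TNFα (tumour necrosis factor alpha) is an inflammatory cytokine, and c-Jun, the JUN product, forms part of AP-1, a dimeric transcription factor. The groups allow the question of which TNFα responses differ between c-Jun siRNA and control siRNA. Only RNA was measured, so the level of c-Jun protein is not known here.

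IL-6 and IL-11 each bind their own receptor chain, and LIF binds LIFR, together with the signalling chain gp130, the product of IL6ST. gp130 activates JAK kinases and chiefly the transcription factor STAT3, and SOCS3 limits the signal. The colony-stimulating factors act mostly on myeloid cells: CSF1 sustains macrophages, CSF2 acts on macrophages and granulocytes, and CSF3 drives neutrophil production. IL6 and several of these genes are classical inflammatory targets of NF-kB, C/EBP and AP-1 factors.

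Values below are log2 expression per probe set, differences are log2 differences with their standard error (SE), and a group mean carries its SD (n = 3). A gene was called changed at a Benjamini-Hochberg adjusted p under 0.05 in a limma fit over all genes. Array medians, taken over all 33297 probe sets, lay between 5.62 and 5.68. The median over the 17958 measured genes was higher, 6.96. Precision is limited by having 3 arrays a group. Whether replicates came from separate cultures is not given, so p-values refer to the spread among these samples, which may be technical. The name of c-Jun siRNA TNFα replicate 3 reads as a further run of the array of replicate 1. The SD of the difference between these 2 arrays over genes was 0.121, near the low end of 0.119 to 0.142 among all pairs of replicates. The other pairs of that group gave 0.142 and 0.133. The deviations of these 2 arrays from their group mean were the least negatively correlated of all replicate pairs (r = -0.368). Whether they are runs of 1 sample was not tested, and both were kept. With the 2 averaged into 1 sample, 0 of the 30 calls on the measured genes changed. The mesenchymal markers VIM, ZEB1, FN1, CDH2 and SPARC averaged 11.2 to 11.4 per array, and ESR1, PGR, CDH1 and EPCAM lay below the array median on all 12 arrays. ERBB2 was an exception among the markers listed as low, above the median on every array. CDH1 stood at 5.48 and 5.00 with c-Jun siRNA (TNFα and vehicle), against 4.54 and 4.45 with control siRNA. FN1 stood at 11.24 and 11.04 with c-Jun siRNA (TNFα and vehicle), against 11.84 and 11.48 with control siRNA. The leukocyte list had 8 of 9 members measured and averaged 4.88 to 5.02 per array, and the 5 endothelial markers averaged 4.47 to 4.73. All of these lay below the array median on all 12 arrays except CD68, a macrophage marker, and TEK, an endothelial receptor, which lay above it on all 12. ITGAM, a myeloid integrin, rose with TNFα by 0.69 ± 0.093 with c-Jun siRNA and 0.78 ± 0.093 with control siRNA (adjusted p = 1.06e-05 and 1.92e-06). TEK was higher with c-Jun siRNA by 0.61 ± 0.074 under TNFα and 0.93 ± 0.074 under vehicle (adjusted p = 4.07e-06 and 1.68e-08). Of the 5 mesenchymal markers, 4 were called lower and 1 higher with c-Jun siRNA under vehicle, and 1 each way under TNFα. Of the 5 listed as low, 1 was called higher and none lower with c-Jun siRNA under each treatment. Of all genes, 28.9% were called either way under vehicle and 28.5% under TNFα. The part of these markers in the results below was not tested. In such bulk RNA, fewer cells that express a gene and less RNA per cell cannot be told apart.

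JUN was the targeted gene. It stood at 10.36 ± 0.032 with c-Jun siRNA and TNFα, 9.83 ± 0.021 with c-Jun siRNA and vehicle, 11.07 ± 0.041 with control siRNA and TNFα and 10.35 ± 0.0052 with control siRNA and vehicle. The siRNA left 61.1% of the JUN signal under TNFα (adjusted p = 9.26e-12) and 69.5% under vehicle (adjusted p = 4.48e-10). JUN rose with TNFα under c-Jun siRNA by 0.53 ± 0.032 and under control siRNA by 0.72 ± 0.032 (adjusted p = 1.94e-10 and 1.96e-12). JUN in TNFα-treated c-Jun siRNA cells differed from its level in vehicle-treated control cells by 0.01 ± 0.032 (adjusted p = 0.855, 95% interval -0.06 to 0.08).

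IL6, LIF, CSF1 and IL6ST rose with TNFα under both siRNAs, while IL11 was called in no comparison. IL6, LIF, CSF1 and IL6ST were higher with c-Jun siRNA than with control siRNA when no TNFα was given, a comparison that shares its vehicle control arrays with the TNFα comparison. Under TNFα, c-Jun siRNA lowered IL6 and CSF1 and raised IL6ST. The TNFα response of these 4 genes was smaller with c-Jun siRNA. For TNFα with c-Jun siRNA, 5 of the 6 genes were called higher and none lower, against 11.3% of all genes called higher, 18.3% lower and 29.6% either way. Their median difference was 1.08, against -0.02 over all genes. Of the genes called in that comparison, 38.3% were called higher, or 54.4% after centring each array on its median. With control siRNA, 4 of 6 were called higher and none lower, against 13.8% of all genes called higher, 21.9% lower and 35.7% either way, with a median of 1.91, against -0.02 over all genes. For c-Jun siRNA under TNFα, 1 was called higher and 2 lower, against 14.1% and 14.4% of all genes, or 28.5% either way. Under vehicle, 4 of 6 were called higher and none lower, against 14.4% of all genes called higher, 14.5% lower and 28.9% either way, with a median of 0.52, against -0.01 over all genes. For the interaction, the difference between the TNFα responses of the 2 siRNAs, 4 of 6 were called lower and none higher, against 3.59% of all genes called lower, 1.88% higher and 5.47% either way. Of all interaction calls 34.4% were higher, or 45.1% after centring. The 2 groups did not overlap for 5 of the 6 genes with TNFα and c-Jun siRNA (38.9% of all genes), for 5 with TNFα and control siRNA (45.3%), for 4 with c-Jun siRNA under TNFα (38.5%) and for 4 under vehicle (39.2%). Comparisons that share a group are not independent.

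**Figure D1:**
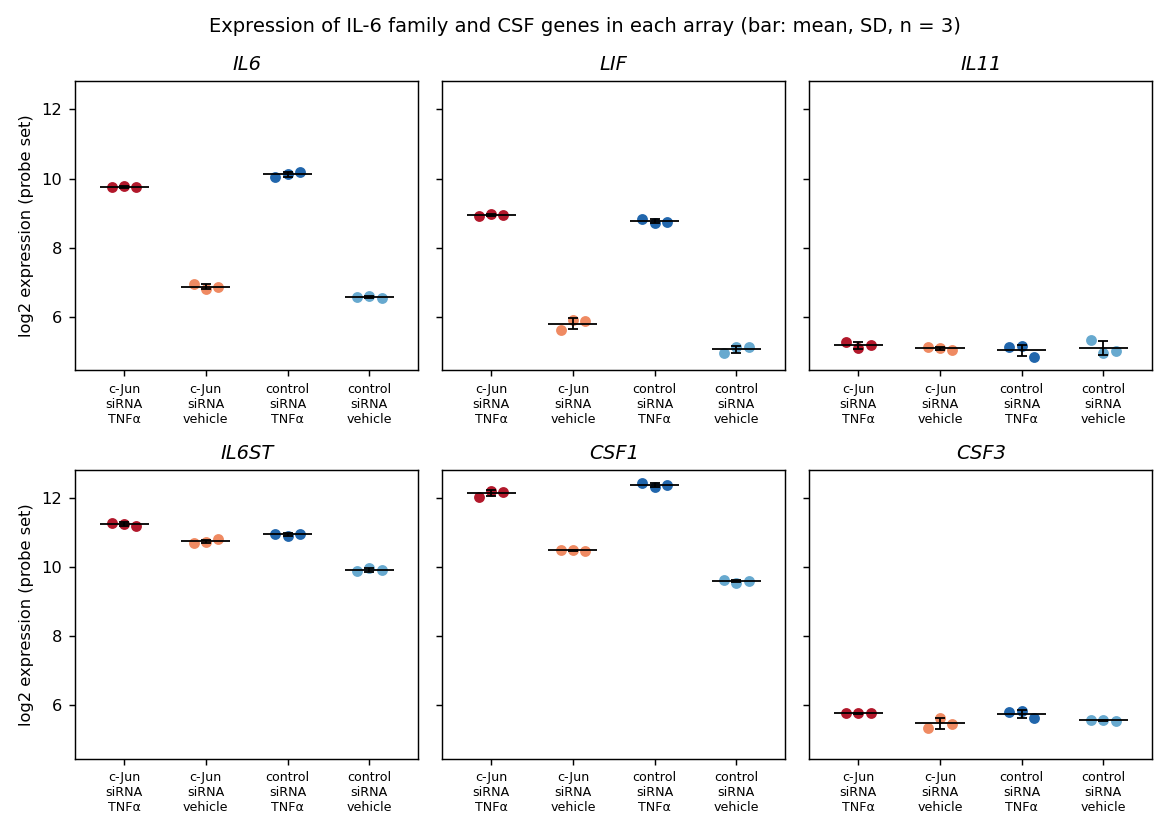
Log2 expression of the 6 measured genes in every array; each point is 1 array, the bar is the mean and the whiskers the SD of 3 arrays. IL6, LIF and CSF1 are far higher with TNFα under both siRNAs, IL6ST is lowest with control siRNA and vehicle, and IL11 and CSF3 lie low in all 4 groups.

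IL6, an inflammatory cytokine and the founding member of its family, ranked 29 from the highest of 17958 genes for its TNFα difference with c-Jun siRNA and 27 with control siRNA. Its promoter is shown because it holds matches to the motifs of 3 kinds of inflammatory regulator. The 250 bases before the RefSeq gene start (GRCh38.p14, plus strand, chr7:22726950-22727199) are given 5′ to 3′ below, with matches in capitals: the CRE core TGACGT on the minus strand, 163 to 158 bases before the start, the C/EBP motif TTGCNNAA, 155 to 148 before, and the NF-kB consensus, 73 to 64 before.

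IL6 promoter: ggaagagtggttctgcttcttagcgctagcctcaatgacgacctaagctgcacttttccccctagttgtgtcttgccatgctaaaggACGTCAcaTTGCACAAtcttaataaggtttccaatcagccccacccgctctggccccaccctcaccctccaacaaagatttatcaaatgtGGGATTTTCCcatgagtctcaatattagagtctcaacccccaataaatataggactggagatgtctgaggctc

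Both strands were searched and no motif overlapped another. The CRE core occurs in 7.1% of 35116 RefSeq promoters of this length, the C/EBP motif in 9.05% and the NF-kB consensus in 5.21%, so a match describes the letters only. The motif TGANTCA, bound by AP-1, was not found in this window.

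**Figure D2:**
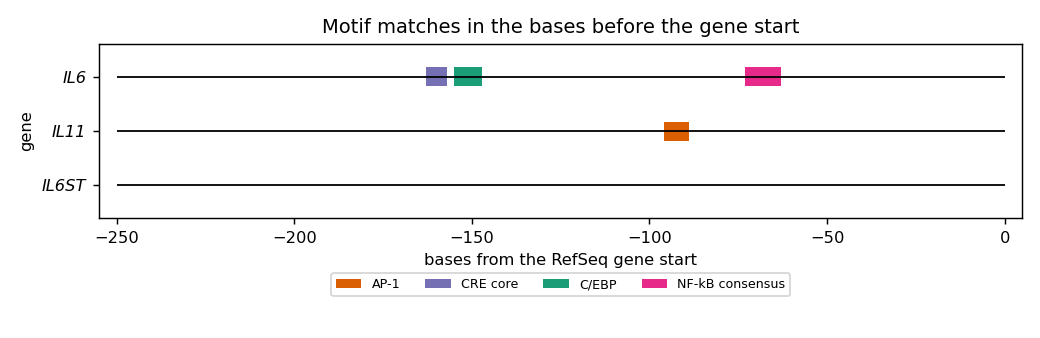
Motif matches in the bases before the RefSeq gene start of IL6, IL11 and IL6ST; the x axis is the distance from the start in bases and each coloured block is a match. IL6 has 3 matches, IL11 has 1 to the AP-1 motif and IL6ST has none of those searched.

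With c-Jun siRNA, IL6 (probe set 8131803) stood at 9.74, 9.77 and 9.75 with TNFα and at 6.95, 6.81 and 6.85 with vehicle. With control siRNA it stood at 10.05, 10.13 and 10.20 with TNFα and at 6.57, 6.59 and 6.55 with vehicle. The 4 groups did not overlap, and every TNFα array lay above every vehicle array. The vehicle values of IL6 lay above the array medians but below 6.96, the median over all measured genes. TNFα raised IL6 by 2.88 ± 0.05 with c-Jun siRNA, 7.38-fold (95% interval 6.86 to 7.93, adjusted p = 4.55e-18), and by 3.56 ± 0.05 with control siRNA, 11.8-fold (log2 interval 3.45 to 3.66, adjusted p = 9.07e-20). c-Jun siRNA lowered IL6 to 77.2% of the control siRNA level under TNFα (-0.37 ± 0.05, adjusted p = 1.13e-05) and raised it 1.23-fold under vehicle (0.30 ± 0.05, adjusted p = 0.000113). The TNFα response was smaller with c-Jun siRNA by 0.68 on the log2 scale (-0.68 ± 0.07, adjusted p = 5.14e-06). From low to high the groups were control siRNA vehicle, c-Jun siRNA vehicle, c-Jun siRNA TNFα and control siRNA TNFα, and each pair of neighbours was called different. A second, dimmer IL6 probe set (8138542) had group means of 4.06 to 4.66 and lay below the array median on all 12 arrays. It rose with TNFα by 0.40 with c-Jun siRNA and 0.59 with control siRNA (adjusted p = 0.00413 and 8.93e-05). It showed no called difference for the siRNA under vehicle (-0.01, adjusted p = 0.962) or under TNFα (-0.21, adjusted p = 0.139), nor for the interaction (-0.20, adjusted p = 0.545). With the mean of both IL6 probe sets, the TNFα rise was 1.64 with c-Jun siRNA and 2.08 with control siRNA, and the rise with c-Jun siRNA under vehicle was 0.15 and no longer called (adjusted p = 0.133).

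LIF, a ligand of LIFR and gp130 that sustains stem-cell self-renewal in mouse embryonic stem cells, had the largest TNFα response of the 6 with the probe sets used. With the mean of both LIF probe sets, its response was 1.97 with c-Jun siRNA and 2.29 with control siRNA, the second of these below that of CSF1. LIF lay below the array median on 4 arrays, among them all 3 with control siRNA and vehicle, so its differences against that group start from low signal. With values under 5 set to 5, its TNFα difference with control siRNA was 3.69 and its interaction -0.54 (adjusted p = 0.0214). With c-Jun siRNA, LIF (probe set 8075310) stood at 8.92, 8.97 and 8.95 with TNFα and at 5.63, 5.90 and 5.87 with vehicle. With control siRNA it stood at 8.83, 8.71 and 8.75 with TNFα and at 4.93, 5.11 and 5.11 with vehicle. No groups overlapped; the 3 arrays of each TNFα group were above both vehicle groups. TNFα raised LIF by 3.15 ± 0.074 with c-Jun siRNA, 8.88-fold (7.97 to 9.9, adjusted p = 3.63e-16), and by 3.71 ± 0.074 with control siRNA, 13.1-fold (11.7 to 14.6, adjusted p = 1.86e-17). Under vehicle, c-Jun siRNA raised LIF 1.68-fold (0.74 ± 0.074, adjusted p = 3.15e-07). Under TNFα the c-Jun siRNA arrays all lay above the control siRNA arrays, by 0.19 ± 0.074, which was not called (adjusted p = 0.0728, 95% interval 0.03 to 0.34). It was called (adjusted p = 0.0351) when replicate 1 of c-Jun siRNA with vehicle, an array of neither group, was left out of the fit. The interaction was -0.56 ± 0.11 (adjusted p = 0.00258). From low to high the groups were control siRNA vehicle, c-Jun siRNA vehicle, control siRNA TNFα and c-Jun siRNA TNFα, and the 2 highest were not called different. With the mean of both LIF probe sets the interaction was not called (-0.32, adjusted p = 0.106). A second, dimmer LIF probe set (8072314) had group means of 5.225 to 6.117, among them 5.33 ± 0.36 with c-Jun siRNA and vehicle. It rose with TNFα by 0.79 with c-Jun siRNA and by 0.87 with control siRNA (adjusted p = 0.000131 and 3.62e-05). It showed no called siRNA difference under vehicle (0.10, adjusted p = 0.645) or TNFα (0.02, adjusted p = 0.938), nor an interaction (-0.08, adjusted p = 0.891).

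IL11 is a further gp130 ligand, acting through IL11RA, and it was called in no comparison. IL11 (probe set 8039484) stood with c-Jun siRNA at 5.28, 5.08 and 5.17 with TNFα and at 5.12, 5.09 and 5.03 with vehicle. With control siRNA it stood at 5.11, 5.13 and 4.84 with TNFα and at 5.31, 4.94 and 4.99 with vehicle. All groups overlapped, and all 12 arrays lay below their array median. TNFα gave 0.10 ± 0.1 with c-Jun siRNA (adjusted p = 0.554, 95% interval -0.12 to 0.31) and -0.05 ± 0.1 with control siRNA (adjusted p = 0.75, 95% interval -0.27 to 0.16). c-Jun siRNA gave 0.15 ± 0.1 under TNFα and -0.0025 ± 0.1 under vehicle (adjusted p = 0.33 and 0.992), and the interaction was 0.15 ± 0.14 (adjusted p = 0.678). No neighbours in the order of its levels were called different. The IL11 promoter (GRCh38.p14, minus strand, chr19:55370464-55370713) is shown because it holds the AP-1 motif TGANTCA, 96 to 90 bases before the RefSeq start, in capitals.

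IL11 promoter: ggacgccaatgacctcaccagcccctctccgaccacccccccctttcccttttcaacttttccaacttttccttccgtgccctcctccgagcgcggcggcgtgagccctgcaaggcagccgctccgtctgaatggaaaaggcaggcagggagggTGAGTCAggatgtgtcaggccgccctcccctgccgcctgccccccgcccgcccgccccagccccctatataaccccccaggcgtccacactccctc

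The AP-1 motif occurs in 6.57% of promoters of this length, and at this level of signal no TNFα or siRNA effect was detectable for IL11.

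IL6ST encodes gp130, the signalling chain of IL-6, LIF and IL-11 receptors. With c-Jun siRNA, IL6ST (probe set 8112139) stood at 11.29, 11.26 and 11.20 with TNFα and at 10.71, 10.73 and 10.81 with vehicle. With control siRNA it stood at 10.97, 10.90 and 10.97 with TNFα and at 9.88, 9.98 and 9.91 with vehicle. No groups overlapped, and the vehicle-treated control cells were lowest. TNFα raised IL6ST by 0.50 ± 0.037 with c-Jun siRNA, 1.41-fold (1.34 to 1.49, adjusted p = 4.53e-09), and by 1.03 ± 0.037 with control siRNA, 2.04-fold (1.93 to 2.15, adjusted p = 1.06e-13). c-Jun siRNA raised IL6ST 1.23-fold under TNFα (0.30 ± 0.037, adjusted p = 4.79e-06) and 1.77-fold under vehicle (0.83 ± 0.037, adjusted p = 7.28e-12). IL6ST was the 1 gene of the 6 called higher with the siRNA under both treatments, and its interaction was -0.53 ± 0.053 (adjusted p = 3.32e-06). From low to high the groups were control siRNA vehicle, c-Jun siRNA vehicle, control siRNA TNFα and c-Jun siRNA TNFα, all neighbours called different. The closest, control siRNA TNFα over c-Jun siRNA vehicle, differed by 0.20 ± 0.037 (adjusted p = 0.000247), in a pair where 38.9% of all genes were called. Its promoter in the RefSeq table held none of the motifs searched.

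CSF1, the growth factor of macrophages and their precursors, had the largest interaction in size of the 6. With c-Jun siRNA, CSF1 (probe set 7903786) stood at 12.05, 12.19 and 12.19 with TNFα and at 10.50, 10.50 and 10.48 with vehicle. With control siRNA it stood at 12.44, 12.31 and 12.39 with TNFα and at 9.62, 9.55 and 9.61 with vehicle. No groups overlapped. TNFα raised CSF1 by 1.65 ± 0.04 with c-Jun siRNA, 3.14-fold (2.96 to 3.34, adjusted p = 6.12e-16), and by 2.79 ± 0.04 with control siRNA, 6.89-fold (6.5 to 7.31, adjusted p = 1.56e-19). c-Jun siRNA lowered CSF1 to 85.0% of the control siRNA level under TNFα (-0.24 ± 0.04, adjusted p = 0.000175) and raised it 1.86-fold under vehicle (0.90 ± 0.04, adjusted p = 7.28e-12). Its interaction of -1.13 ± 0.057 (adjusted p = 5.58e-10) ranked 29 from the lowest of 17958 genes. From low to high the groups were control siRNA vehicle, c-Jun siRNA vehicle, c-Jun siRNA TNFα and control siRNA TNFα, all neighbours called different. With c-Jun siRNA and TNFα, CSF1 was 2.55 ± 0.04 above vehicle-treated control cells (adjusted p = 5.06e-19, 39.3% of all genes called in that pair).

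CSF3, the granulocyte factor G-CSF, lay below the array median on 6 of its 12 arrays. With c-Jun siRNA, CSF3 (probe set 8006999) stood at 5.76, 5.78 and 5.77 with TNFα and at 5.33, 5.64 and 5.45 with vehicle. With control siRNA it stood at 5.80, 5.83 and 5.62 with TNFα and at 5.57, 5.58 and 5.54 with vehicle. The TNFα arrays lay above the vehicle arrays under each siRNA, but the rise was called only with c-Jun siRNA, 0.30 ± 0.084 (1.23-fold, adjusted p = 0.0108), and not with control siRNA, 0.19 ± 0.084 (adjusted p = 0.0949). The difference between these responses was not called (0.11 ± 0.12, adjusted p = 0.736), and the call with c-Jun siRNA was lost (0.22, adjusted p = 0.0752) with vehicle replicate 1 of that siRNA left out. With control siRNA the rise was called without control siRNA TNFα replicate 3 (0.25, adjusted p = 0.0406). c-Jun siRNA gave 0.02 ± 0.084 under TNFα and -0.09 ± 0.084 under vehicle, neither called (adjusted p = 0.902 and 0.521), and no neighbours in the order of its levels were called different.

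**Figure D3:**
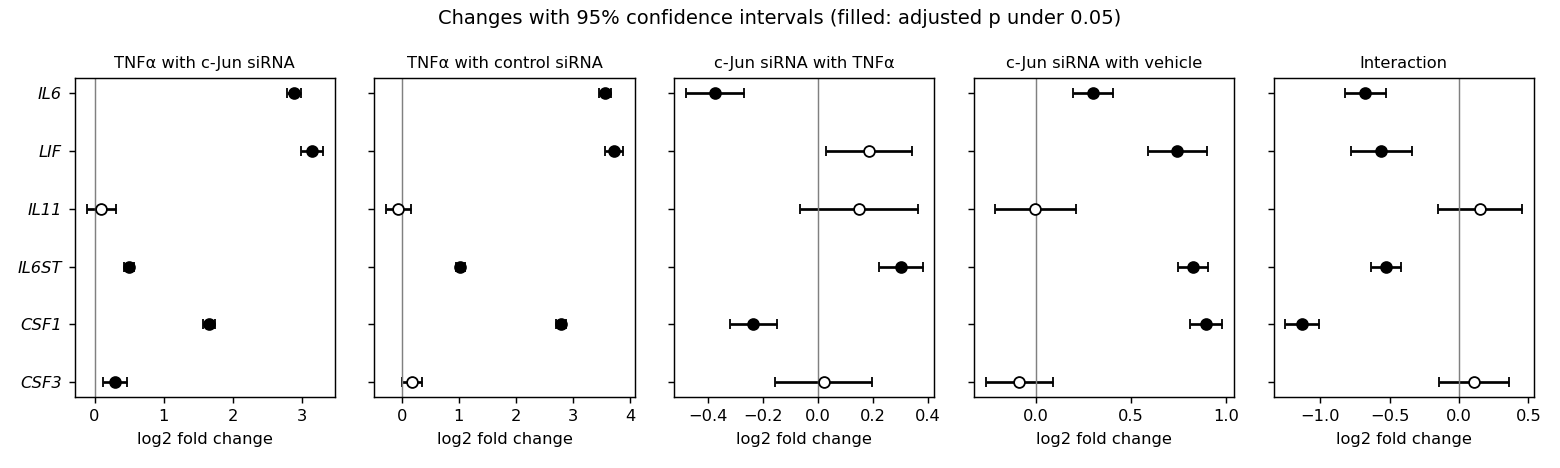
Log2 fold changes of the 6 genes with 95% confidence intervals in each comparison; filled points have an adjusted p under 0.05 and the grey line is no change. IL6, LIF, IL6ST and CSF1 lie left of 0 for the interaction, while IL11 and CSF3 cross 0 there.

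The array names carry a position code whose column was read, by inference, as a plate column. TNFα and vehicle arrays with c-Jun siRNA shared no such column, so no within-column value exists for that comparison, while a fit with the column as a fixed block was possible through the control siRNA arrays. In that fit the TNFα difference with c-Jun siRNA was 2.90 for IL6, 3.22 for LIF, 0.47 for IL6ST and 1.67 for CSF1 (adjusted p = 5.37e-12, 3.24e-10, 0.00037 and 6.66e-10). Over all genes the block left 2376 calls there, against 5320 without it. Within the column shared by 2 TNFα and 2 vehicle arrays with control siRNA, the TNFα difference was 3.59 for IL6, 3.71 for LIF, 1.01 for IL6ST and 2.76 for CSF1. For c-Jun siRNA under vehicle, 1 column held 3 c-Jun siRNA arrays and 1 control siRNA array and gave 0.32 for IL6, 0.69 for LIF, 0.84 for IL6ST and 0.88 for CSF1. Under TNFα, 2 columns, with 1 and 2 c-Jun siRNA arrays against 2 and 1 control siRNA arrays, gave -0.39 and -0.31 for IL6, 0.24 and 0.11 for LIF, 0.33 and 0.27 for IL6ST, and -0.16 and -0.32 for CSF1. Under the same block, LIF lost its interaction call (-0.51, adjusted p = 0.0587) and CSF3 its TNFα call with c-Jun siRNA (0.25, adjusted p = 0.447).

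Among 8 measured genes for other ligands of these receptors, EBI3 and IL34 were called higher in every pairwise comparison, and the other 6 were not called. Over all genes, 28.5% to 35.7% were called either way in the 4 comparisons of TNFα or siRNA. EBI3, a subunit of IL-27 and IL-35, rose with TNFα by 3.92 ± 0.12 with c-Jun siRNA and by 3.92 ± 0.12 with control siRNA (adjusted p = 9.01e-15 and 5.04e-15), and its interaction of 0.00 ± 0.16 was not called (adjusted p = 0.998). IL34, a second ligand of the CSF1 receptor, rose with TNFα by 1.497 ± 0.079 with c-Jun siRNA and by 2.07 ± 0.079 with control siRNA (adjusted p = 3.2e-11 and 1.95e-13). c-Jun siRNA raised IL34 by 0.50 under TNFα and by 1.07 under vehicle (adjusted p = 7.41e-05 and 5.47e-09). OSM, IL27, IL31 and IL3 lay below the array median in all arrays. EBI3 lay below it on 4 arrays, so its TNFα rises start from low signal. Its vehicle means were 5.79 with c-Jun siRNA and 5.17 with control siRNA. CNTF had no single-symbol probe set and was not analysed here.

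Of 12 receptor genes, 1 was called higher and 5 lower with TNFα and c-Jun siRNA (median -0.03), against 29.6% of all genes either way. With control siRNA, 2 were higher and 4 lower (median -0.04), against 35.7%. For c-Jun siRNA under TNFα, 3 were called higher and 3 lower, against 28.5% of all genes either way. Under vehicle, 4 were higher and 1 lower, against 28.9%. IL3RA, which binds IL-3, rose with TNFα by 2.21 ± 0.087 with c-Jun siRNA and 1.53 ± 0.087 with control siRNA (adjusted p = 5.33e-13 and 7.4e-11), an interaction of 0.68 ± 0.12 (adjusted p = 0.00171) and the 1 receptor with an interaction called higher. IL3RA lay at 3.74 and 3.73 in the vehicle groups with c-Jun siRNA and control siRNA and below the array median on 9 arrays, so the sizes are against low signal. With values under 5 set to 5, the IL3RA rises were 0.96 with c-Jun siRNA and 0.25 with control siRNA (adjusted p = 7.82e-06 and 0.0181). CNTFR, the CNTF receptor, fell with TNFα by 0.63 with c-Jun siRNA and 0.70 with control siRNA (adjusted p = 7.72e-07 and 1.53e-07). IL27RA, the IL-27 receptor chain that pairs with gp130, gave 0.19 ± 0.1 with TNFα and c-Jun siRNA (adjusted p = 0.177) and rose by 0.98 ± 0.1 with control siRNA (adjusted p = 2.75e-07), an interaction of -0.79 ± 0.14 (adjusted p = 0.00182). With c-Jun siRNA vehicle replicate 3 left out, the IL27RA rise with c-Jun siRNA was called (adjusted p = 0.0432). OSMR, the oncostatin M receptor chain, was higher with c-Jun siRNA by 0.18 ± 0.031 under TNFα and by 0.22 ± 0.031 under vehicle (adjusted p = 0.000216 and 1.78e-05). LIFR, which pairs with gp130 for LIF, gave -0.26 ± 0.058 with TNFα and c-Jun siRNA (adjusted p = 0.002) and -0.08 ± 0.058 with control siRNA (adjusted p = 0.329), and rose with c-Jun siRNA under vehicle by 0.32 ± 0.058 (adjusted p = 0.000298). IL6R, the IL-6 binding chain, was not called in the 4 comparisons of TNFα or siRNA, nor in the interaction. Its group means were 5.72 with c-Jun siRNA and TNFα, 5.78 with c-Jun siRNA and vehicle, 5.91 with control siRNA and TNFα and 5.94 with control siRNA and vehicle. Its c-Jun siRNA arrays all lay below the control siRNA arrays, under TNFα (38.5% of all genes did not overlap) and under vehicle (39.2%). CSF1R and CSF3R, the receptors of CSF1 and CSF3, lay below the array median on all 12 arrays and were not called.

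**Figure D4:**
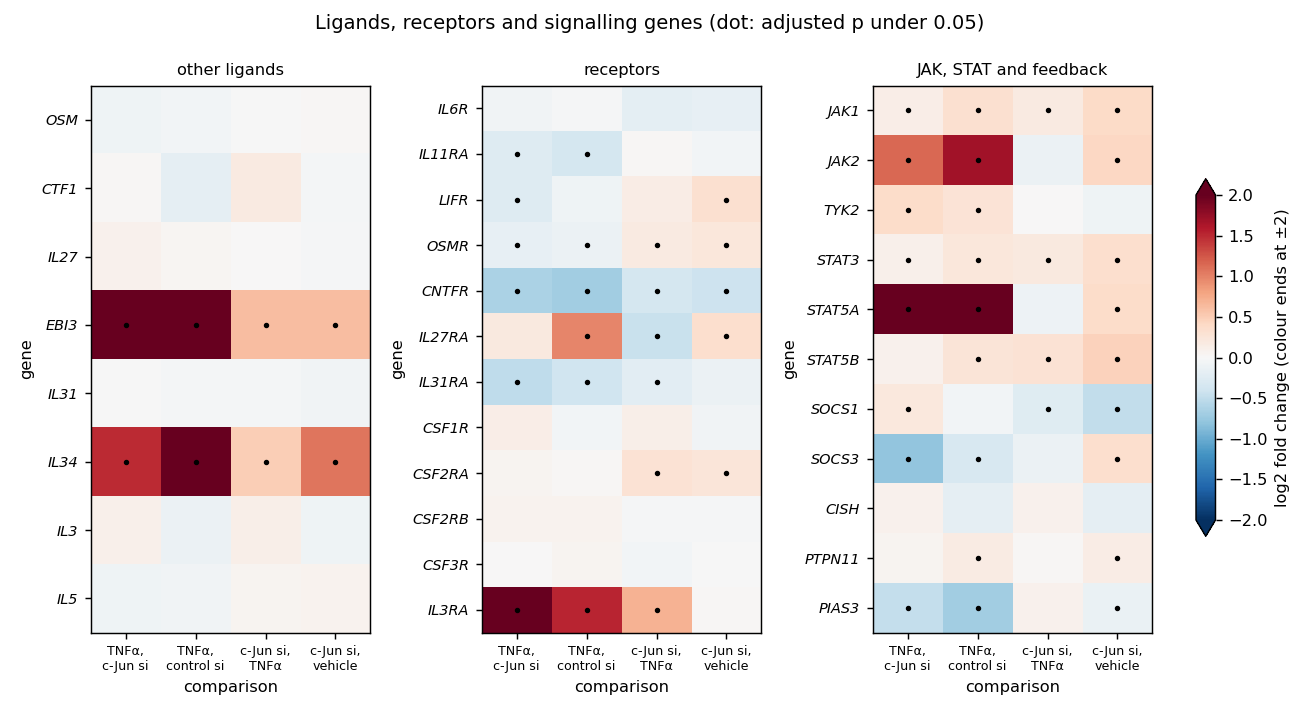
Log2 fold changes of other ligands, receptors and JAK, STAT and feedback genes in 4 comparisons; colour gives the change and a dot an adjusted p under 0.05. EBI3, IL34 and STAT5A show large rises with TNFα under both siRNAs.

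In the JAK, STAT and feedback list, 11 genes were measured. With TNFα and c-Jun siRNA, 6 were called higher and 2 lower (median 0.10), against 29.6% of all genes either way. With control siRNA, 7 were higher and 2 lower (median 0.23), against 35.7%. For c-Jun siRNA under TNFα, 3 were called higher and 1 lower, against 28.5% of all genes either way. Under vehicle, 7 were higher and 2 lower, against 28.9%. STAT5A, a factor activated by CSF2 receptors, rose with TNFα by 3.12 ± 0.086 with c-Jun siRNA and 3.598 ± 0.086 with control siRNA (adjusted p = 3.16e-15 and 2.18e-16). STAT5A lay below the array median on 4 arrays, so these rises start from low signal. Its vehicle means were 5.72 with c-Jun siRNA and 5.355 with control siRNA. JAK2, the kinase tied to many cytokine receptors, rose by 1.15 ± 0.056 with c-Jun siRNA and 1.68 ± 0.056 with control siRNA (adjusted p = 1.17e-11 and 3.42e-14). STAT3, the principal gp130 effector, rose by 0.10 ± 0.03 with c-Jun siRNA and 0.23 ± 0.03 with control siRNA (adjusted p = 0.0151 and 4.66e-06). The STAT3 call with c-Jun siRNA was lost without c-Jun siRNA vehicle replicate 2, without c-Jun siRNA TNFα replicate 2 and in 3 other settings (adjusted p up to 0.243). STAT3 was also higher with c-Jun siRNA, by 0.20 ± 0.03 under TNFα and 0.33 ± 0.03 under vehicle (adjusted p = 3.95e-05 and 8.12e-08). SOCS3, the gp130 inhibitor, fell with TNFα by 0.79 with c-Jun siRNA and by 0.32 with control siRNA (adjusted p = 1.6e-07 and 0.00235). Under vehicle, c-Jun siRNA raised SOCS3 by 0.34 ± 0.076 and lowered SOCS1, a related inhibitor, by 0.50 (-0.50 ± 0.054, adjusted p = 0.00194 and 9.83e-07).

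Of 15 STAT3 target genes, 10 were called higher and none lower with TNFα and c-Jun siRNA (median 0.45), against 11.3% of all genes higher. With control siRNA, 11 were higher and none lower (median 0.45), against 13.8%. For c-Jun siRNA under TNFα, 1 was called higher and 6 lower, against 28.5% of all genes either way. Under vehicle, 7 were higher and 1 lower, against 28.9%. SERPINA3, an acute-phase protease inhibitor, rose with TNFα by 2.47 ± 0.092 with c-Jun siRNA and 3.87 ± 0.092 with control siRNA (adjusted p = 2.46e-13 and 2.07e-16), and under TNFα it was 1.25 lower with c-Jun siRNA on the log2 scale (-1.25 ± 0.092, adjusted p = 5.9e-09). SERPINA3 lay below the array median on 6 arrays, so its rises start from low signal. Its vehicle means were 4.89 with c-Jun siRNA and 4.74 with control siRNA. ICAM1, an adhesion molecule, rose with TNFα by 2.53 ± 0.042 with c-Jun siRNA and 3.06 ± 0.042 with control siRNA (adjusted p = 2.51e-18 and 5.8e-20). IRF1, an interferon-response factor, rose by 2.11 ± 0.048 with c-Jun siRNA and 2.66 ± 0.048 with control siRNA (adjusted p = 2.15e-16 and 3.92e-18). PIM1, a survival kinase, rose by 0.60 ± 0.05 with c-Jun siRNA and 0.30 ± 0.05 with control siRNA (adjusted p = 1.93e-08 and 8.91e-05). ICAM1, IRF1 and BCL3 are also known NF-kB targets.

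Among 16 transcription factors of the AP-1, NF-kB, C/EBP and NFAT families, 11 were called higher and 2 lower with TNFα and c-Jun siRNA (median 0.37). With control siRNA, 11 were higher and 3 lower (median 0.66). The shares of all genes called either way were 29.6% and 35.7%. The interaction was called lower for 9, JUN itself among them, and higher for none, against 3.59% and 1.88% of all genes. CEBPB, CEBPD and JUNB stand in this list and among the STAT3 targets. RELB, an NF-kB subunit, rose by 1.41 ± 0.042 with c-Jun siRNA and 2.29 ± 0.042 with control siRNA (adjusted p = 1.24e-14 and 5.76e-18). NFKB2, its partner's precursor, rose by 1.11 ± 0.045 with c-Jun siRNA and 2.13 ± 0.045 with control siRNA (adjusted p = 7.96e-13 and 3.94e-17), and its interaction was -1.02 ± 0.064 (adjusted p = 1.02e-08). NFKB1, the other precursor subunit, rose by 1.40 ± 0.044 with c-Jun siRNA and 1.93 ± 0.044 with control siRNA (adjusted p = 2.15e-14 and 1.05e-16). CEBPD, a C/EBP factor, rose by 0.73 ± 0.04 with c-Jun siRNA and 1.31 ± 0.04 with control siRNA (adjusted p = 5.77e-11 and 7.7e-15). For c-Jun siRNA under TNFα, 3 of the 16 were called higher and 6 lower, against 28.5% of all genes either way. Under vehicle, 9 were higher and 3 lower, against 28.9%. JUN, the targeted gene, is among those called lower in both. REL was higher with c-Jun siRNA under both treatments, by 0.44 under TNFα and 1.08 under vehicle (adjusted p = 2.58e-06 and 1.62e-11). NFATC2, a factor of activated lymphocytes, was lower with c-Jun siRNA by 0.85 under TNFα and by 0.74 under vehicle (-0.85 ± 0.058 and -0.74 ± 0.058, adjusted p = 2.42e-09 and 1.41e-08).

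Of 11 factors that bind or degrade cytokine mRNAs, 5 were called higher and 1 lower with TNFα and c-Jun siRNA (median 0.01). With control siRNA, 4 were higher and 2 lower (median 0.04). The shares of all genes called either way were 29.6% and 35.7%. ZC3H12A, a ribonuclease that degrades IL6 mRNA, rose by 1.09 ± 0.066 with c-Jun siRNA and 1.06 ± 0.066 with control siRNA (adjusted p = 2.3e-10 and 2.54e-10). ZFP36, which destabilises AU-rich mRNAs, rose by 0.95 ± 0.074 with c-Jun siRNA and 1.00 ± 0.074 with control siRNA (adjusted p = 9.27e-09 and 3.34e-09). For c-Jun siRNA under TNFα, 1 was called higher and 2 lower, near the 28.5% of all genes called either way. Under vehicle, 1 was higher and 4 lower, against 28.9%. ZC3H12C rose with TNFα by 0.90 ± 0.061 with c-Jun siRNA and 1.39 ± 0.061 with control siRNA (adjusted p = 1.31e-09 and 2.04e-12).

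**Figure D5:**
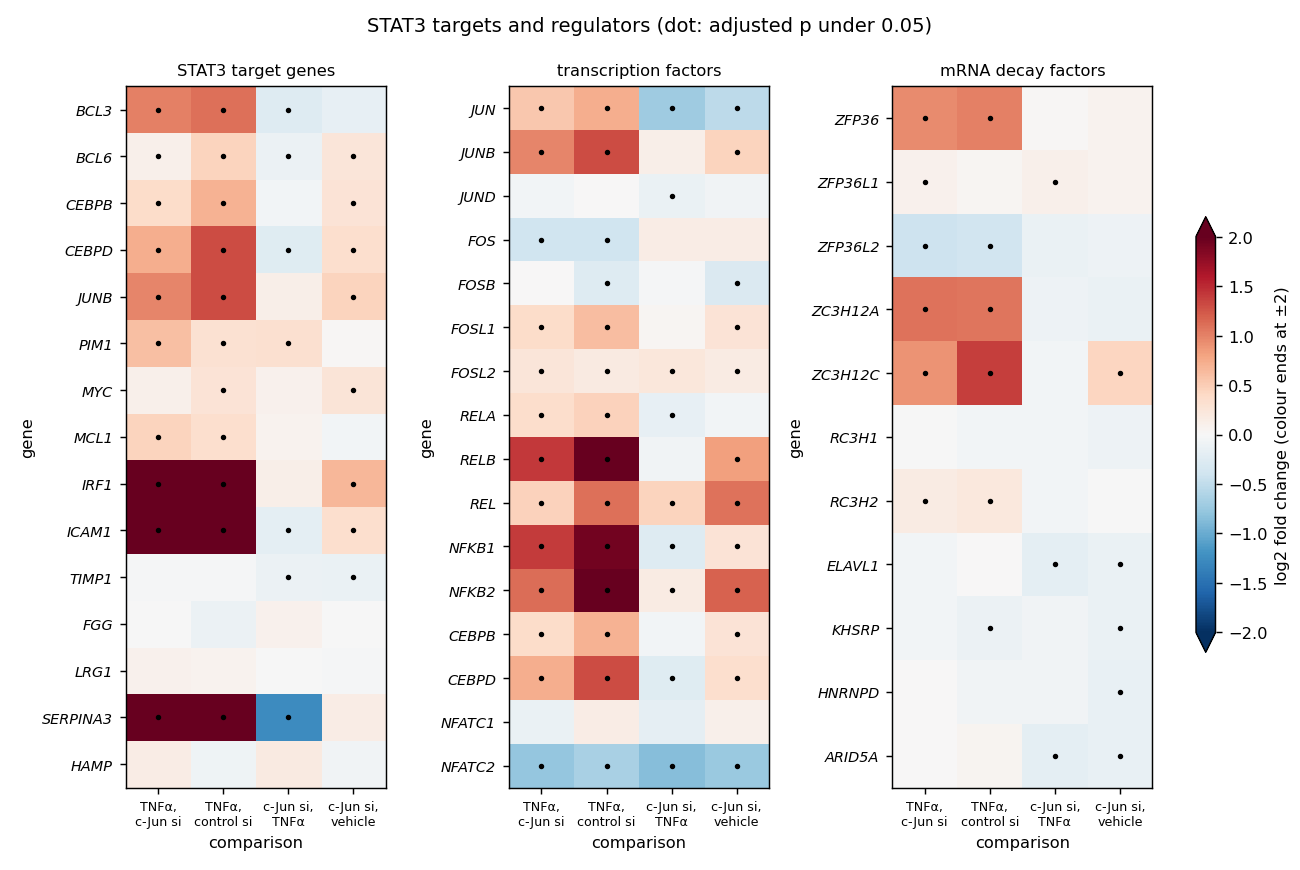
Log2 fold changes of STAT3 target genes, transcription factors and mRNA decay factors in 4 comparisons; colour gives the change and a dot an adjusted p under 0.05. Most STAT3 targets and NF-kB subunits rise with TNFα, and SERPINA3 is lower with c-Jun siRNA under TNFα.

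The genes whose log2 levels followed each member most closely over the 12 arrays are given as a description, since arrays share groups and platform. For IL6 the nearest 3 were ICAM1 (Pearson r = 0.998), DRAM1 and IFIH1; for LIF they were XAF1 (r = 0.998), SMURF2 and RIGI; for IL6ST they were ERAP1 (r = 0.994), ATP13A3 and PSMB9; for CSF1 they were PARP14 (r = 0.999), RELB and SERPINB8. The nearest genes of IL11 and CSF3 were weaker, CST7 at r = 0.917 and ADAMTS19 at r = 0.928. Between members, r over the 12 arrays was 0.987 for IL6 and LIF, 0.976 for IL6 and CSF1 and 0.789 for IL6ST and IL6.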

How the data were processed

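Groups and replicate numbers came from the sample labels. The authors deposited log2 values per probe set, used here without further normalisation; per the submitters' processing notes, tools included Affymetrix Expression Console 1.1 and PLIER, with no role given. The base was inferred from the range of 2.27 to 14.0, and quartiles differed between arrays by at most 0.0608. Of 33297 probe sets, 19181 had 1 gene symbol, 2055 several and 12061 none here. limma 3.58.1 in R 4.3.3 fitted group means with a mean-variance trend to all 12 arrays. Tests were two-sided, with Benjamini-Hochberg adjustment over 17958 genes per comparison. Named genes were drawn from the members, JUN and up to 4 called genes per list and comparison by size of change. They were also drawn from the 3 genes most correlated with each member. Not all genes picked this way are described. Those left out include IL31RA, IL11RA and PIAS3, which fell with TNFα under both siRNAs, and JAK1, which rose under both. IL6R, CSF1R, CSF3R and the ligands not called were added after their values were seen, and OSMR also lay outside the rule. Members and lists were chosen with earlier results of these data known. Replicate numbers did not pair samples: same-number deviations correlated between -0.0586 and 0.0884. Promoters came from a table of RefSeq promoters (GRCh38.p14), in which 4 of the 8 genes were matched. Alternatives covered normalisation, floors, dim-gene filters, probe-set choice, variance models, blocks and left-out arrays. The fit was also run on simulated data with independent noise and a few genes changed in c-Jun siRNA TNFα only. Far more genes were called in the real arrays, so that run does not vouch for the calls here. Python 3.11.15, pandas 2.3.3 and matplotlib 3.10.9 handled tables and plots.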

Additional observations from a re-analysis of the deposited data

Results flagged for a closer look

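By the limma test of the difference itself, the TNFα response differed between c-Jun siRNA and control siRNA for 4 of the 6 measured genes. Of all genes, 5.47% were called in that test, 3.59% lower and 1.88% higher. JUN, the targeted gene, was called as well. The log2 difference between the responses (c-Jun siRNA minus control siRNA) was -0.68 for IL6, -0.56 for LIF, -0.53 for IL6ST, -1.13 for CSF1 and -0.19 for JUN (adjusted p = 5.14e-06, 0.00258, 3.32e-06, 5.58e-10 and 0.0173). In all 5 genes the response was smaller with c-Jun siRNA, for the probe sets used. Under vehicle, c-Jun siRNA raised IL6 by 0.30, LIF by 0.74, IL6ST by 0.83 and CSF1 by 0.90. Under TNFα it gave -0.37 for IL6, -0.24 for CSF1, 0.30 for IL6ST and 0.19 for LIF, the last not called. The LIF call was lost with the mean of its probe sets and with the position column as a fixed block (adjusted p up to 0.106). Second probe sets gave no called interaction for IL6 (-0.20, adjusted p = 0.545) or LIF (-0.08, adjusted p = 0.891). Both were dimmer than the sets used, with group means of 4.06 to 4.66 for IL6 and 5.225 to 6.117 for LIF. The JUN call was lost without control siRNA TNFα replicate 1, with no variance trend and with the position column as a fixed block (adjusted p up to 0.0806).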

How the results depend on the processing

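Of 764 values of the members under other settings, 754 stayed on their side of the threshold, 5 lost the call, 5 gained it, and 0 called values changed sign. Differences of IL11 and CSF3 that were not called changed sign in some settings. With the position column as a fixed block, genes called fell to 2376 for TNFα with c-Jun siRNA (5320 without it), 3448 for c-Jun siRNA with vehicle (5183) and 531 for the interaction (983). Within-column differences and fits of second probe sets were chosen after seeing the data. The second IL6 probe set showed no called c-Jun siRNA difference under vehicle (-0.0101, adjusted p = 0.962), and the mean of the probe sets gave 0.15 (adjusted p = 0.133) there and -0.32 (adjusted p = 0.106) for the LIF interaction. The cause was not tested. The c-Jun siRNA difference of LIF under TNFα was called with centring (adjusted p = 0.0421), without the dimmest 50% of genes (0.0415) and with only the compared groups fitted (0.00838), in a range of 0.00838 to 0.377. CSF3 with TNFα and control siRNA was called without control siRNA TNFα replicate 3 (0.25, adjusted p = 0.0406). The fit with a replicate block called 5249 genes for TNFα with c-Jun siRNA and changed 0 of 30 member calls. Leaving out 1 array gave 5759 to 6516 genes for TNFα with control siRNA, 4661 to 5313 with c-Jun siRNA, 4510 to 5282 for c-Jun siRNA with vehicle, 4440 to 5190 with TNFα and 774 to 1009 for the interaction. Low signal limits IL11, CSF3 and the vehicle values of LIF. The vehicle values of IL6 also lay below 6.96, the median over all measured genes.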
